A study of Danio rerio with 15 samples.

Results

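The proteasome genes of whole zebrafish larvae are described here after a short exposure to tris(4-chlorophenyl)methanol (TCPMOH), a chlorinated contaminant, set against its solvent. Members were the genes whose symbol starts with psma, psmb, psmc, psmd, psme, psmf or psmg followed by a digit, with a base mean (the mean of normalized read counts over the fitted libraries) of at least 20. Of 36351 genes in the authors' deposited table, 56 had such a symbol and 50 of these passed the minimum. The lowest member inside it was psmc3ip, with a base mean of 57.5 in the authors' deposited table, and the highest gene outside it was psmb9a, at 8.26. All 50 members had an adjusted p-value, and 49 of them encode subunits, activators, an inhibitor or assembly factors of the proteasome. The remaining one, psmc3ip, matches by name only, since it encodes a partner protein of an ATPase subunit that acts in meiotic recombination in mammals.

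The TCPMOH group comprised 5 libraries from wild-type AB larvae held in 50 nM TCPMOH from 96 to 100 hours post fertilization (hpf), a 4-hour exposure through the water. The DMSO group comprised 5 libraries from larvae held in 0.01% v/v dimethyl sulfoxide (DMSO) over the same hours. Each library was made from messenger RNA of a pool of 8 to 10 larvae. The series also has 5 libraries of larvae exposed to 50 nM tris(4-chlorophenyl)methane, which were not analysed here. Pools came from 3 experimental replicates and 20 breeding pairs per the series design, without a key from pool to replicate. The p-values thus measure the spread between pools, some of which may share an experiment.

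The proteasome degrades proteins that carry a chain of ubiquitin. Its core is a barrel of alpha rings, which gate the entrance, and beta rings, which hold the cutting sites. A regulatory cap binds the ends of the barrel, where its lid removes ubiquitin and its base of ATPases unfolds the protein and threads it inward. Other caps, the activators, open the barrel without ATP, and dedicated chaperones assemble core and cap. Core and cap are needed in all cells, and in vertebrates a set of alternative beta subunits is induced in immune cells.

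The deposited table gives no values for single libraries, so each gene is described by its base mean, its log2 fold change, the standard error (SE) of that fold change and a DESeq2 Wald p-value with Benjamini-Hochberg adjustment. A positive fold change is read as higher with TCPMOH. The header names no numerator and the comparison is named with DMSO first, so every direction below could be reversed. The fold changes also appear shrunken toward 0, in which case they understate the differences. Base means are not per length and are given as depth, not to rank genes against each other.

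One proteasome gene stood apart. The activator gene psme4a was 1.61-fold higher with TCPMOH, at a log2 fold change of 0.69 (SE 0.113, base mean 919; DESeq2 adjusted p = 4.78e-07) as listed in the authors' deposited table. It encodes the large single-chain activator PA200, which in mammals is known for the breakdown of acetylated histones in spermatogenesis and DNA repair. Of 50 members, 2 were called higher (adjusted p under 0.05) in the authors' deposited table, psme4a and psmc3ip, against 0.758% of the 19257 tested genes. None was called lower by the DESeq2 test in the authors' deposited table, against 1.92% of tested genes, and in either direction 2.68% of tested genes were called. At an unadjusted p under 0.05 there were 8 members in the authors' deposited table, 3 with a positive and 5 with a negative fold change, against 13.0% of tested genes. In a whole larva, a change in the number of cells that express a gene and a change in its RNA per cell cannot be told apart.

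**Figure D1:**
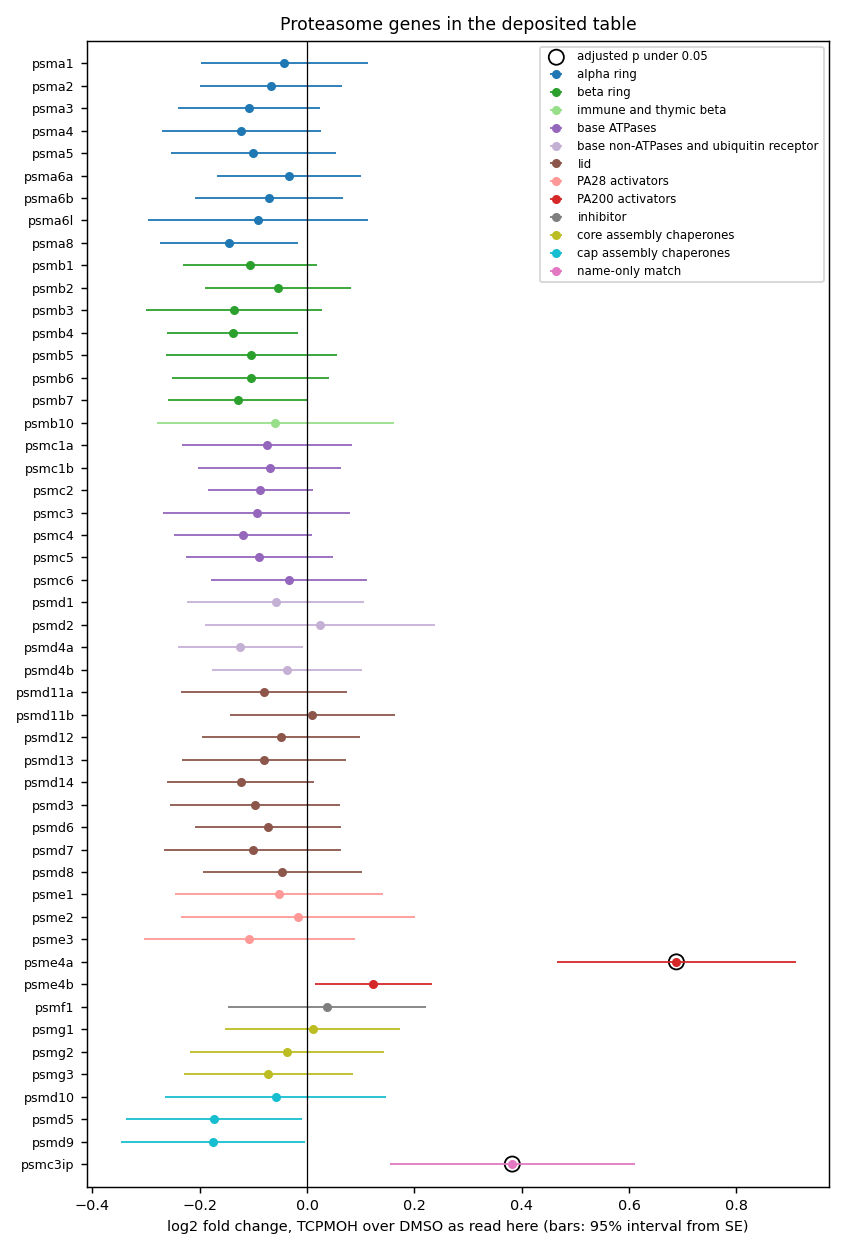
Log2 fold change of each of the 50 members (x axis; TCPMOH over DMSO as read here), grouped and coloured by role down the page, with bars of 1.96 times the deposited SE and black rings on genes with an adjusted p under 0.05. The ringed psme4a (0.69) and psmc3ip (0.38) lie to the right, while 43 of the 50 points lie left of 0.

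Among all tested genes, 4 had a higher log2 fold change than psme4a in the authors' deposited table. Its distance from the median of the core and cap genes was 0.78 log2 units. The gene lies on chromosome 13 from 35689747 to 35744963 on the plus strand, with coordinates as deposited and the genome build not given in the sources used here. No other gene of the table overlaps it. The gene that starts 577 bases downstream on the same strand, gpr75, stood at -0.04 (SE 0.0870; DESeq2 adjusted p = 0.882), and the upstream gene thbs2a stood at 0.06 (SE 0.110; DESeq2 adjusted p = 0.874) as listed in the authors' deposited table. The 3 other genes within 60 kb, erlec1, agpat4 and map3k4, had log2 fold changes of -0.11, 0.01 and 0.04 in the authors' deposited table, none of them called. All 5 were chosen by position, and differences between them and psme4a were not tested.

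The paralog psme4b, on chromosome 12, encodes the same kind of activator. Its log2 fold change was 0.12 (SE 0.0553, base mean 1685; DESeq2 adjusted p = 0.278) as listed in the authors' deposited table, which did not pass. Its interval of 0.02 to 0.23, from the SE in the authors' deposited table, is a 95% interval without adjustment for the number of genes. The log2 fold change of psme4a exceeded that of psme4b by 0.56 (95% interval 0.32 to 0.81, covariance between the estimates ignored). That interval is for fold changes that appear shrunken. Undoing the inferred shrinkage put the difference at 0.85, above its upper bound. For the difference of 0.56, an assumed correlation of -0.5 between the estimates widened the interval to 0.27 to 0.86, and it stayed above 0. The pair was chosen with earlier results of these data known, and these intervals do not allow for that choice. They describe the difference and do not test it. For 4 other paralog pairs among the members, psma6a and psma6b, psmc1a and psmc1b, psmd4a and psmd4b, and psmd11a and psmd11b, the differences lay between -0.09 and 0.04. Each of those intervals included 0, with bounds that reached from -0.31 to 0.23 over the 4 pairs, so differences of that size within a pair cannot be set aside.

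**Figure D2:**
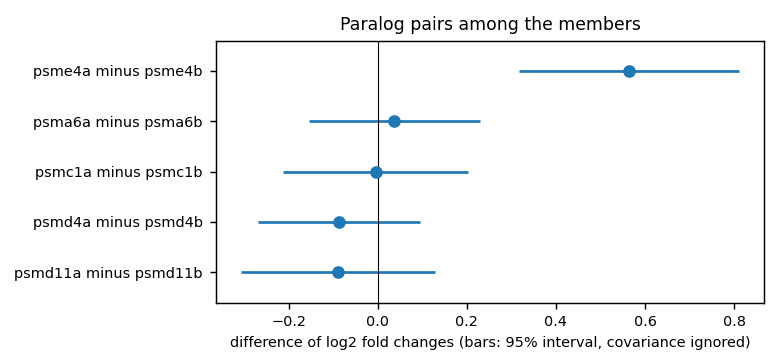
Difference between the log2 fold changes of 5 paralog pairs (x axis, log2 units; first gene minus second), with 95% intervals that ignore the covariance of the estimates. The psme4 pair lies at 0.56, with its interval above 0, and the intervals of the other 4 pairs include 0. The intervals do not allow for the choice of pairs.

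The SE of psme4a was large for its depth. Among 2288 tested genes with base means from 0.8 to 1.25 times its own, the median SE was 0.0750, and 97.0% had a smaller SE than psme4a. For psme4b the share of such genes with a smaller SE was 13.6%, and over the 50 members the median share was 46.8%. Only psme4a and the cap gene psmd2 exceeded 90% among the 50 members. Which libraries carry the spread of psme4a cannot be seen from the table, so a part of 1 library in its fold change was not tested.

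**Figure D3:**
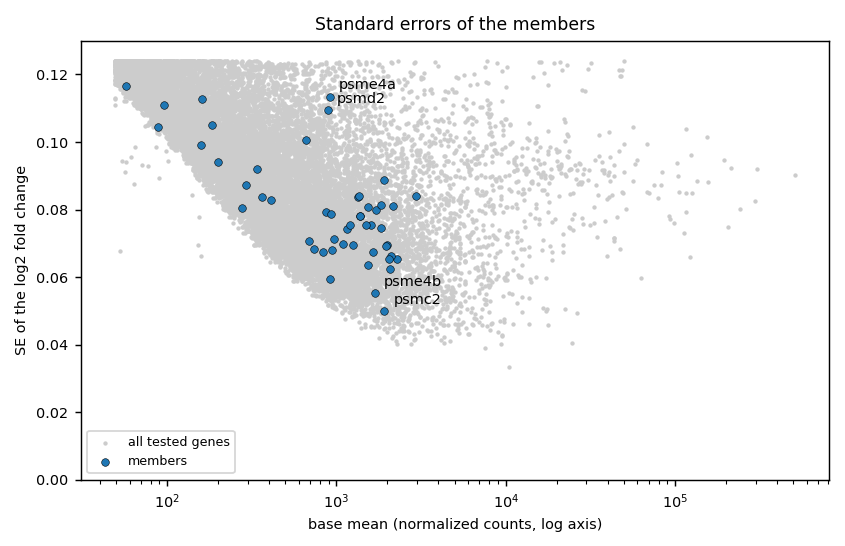
Deposited SE of the log2 fold change (y axis) against base mean (x axis, normalized counts, log axis) for all tested genes in grey and the 50 members in blue. The points of psme4a (0.113) and psmd2 (0.110) lie near the top for their base mean, and those of psmc2 and psme4b (0.0553) near the bottom.

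The core genes had small negative fold changes that did not pass the test one by one. All 17 core members were negative, with a median log2 fold change of -0.10 and a range of -0.15 to -0.03 in the authors' deposited table. Over all tested genes 50.6% were negative, and the median was -0.0016. None of the 17 was called by the DESeq2 test in the authors' deposited table, against 2.68% of tested genes. An unadjusted p under 0.05 was found for 2 of the 17, against 13.0% of tested genes. All fold changes were also shifted by 0.05, so that group sums rebuilt from base means and fold changes are equal. The measured group sums are not known, because no values per library are given. After this shift to equal sums 15 of 17 stayed negative at a median of -0.06, while the median of all tested genes was 0.05.

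In the alpha rings, which close the ends of the barrel, the 9 members ran from -0.15 to -0.03 in the authors' deposited table. The most negative of the 9 was psma8, at -0.15 (SE 0.0654, base mean 2275; DESeq2 adjusted p = 0.281) as listed in the authors' deposited table. The least negative was psma6a, at -0.03 (SE 0.0682, base mean 733; DESeq2 adjusted p = 0.878) as listed in the authors' deposited table. Between them lay psma4 at -0.12, psma3 at -0.11, psma5 at -0.10, psma6l at -0.09, psma6b and psma2 at -0.07 each and psma1 at -0.04 in the authors' deposited table. Of these, psma6l rests on a base mean of 87.9 in the authors' deposited table and the other 6 on 688 to 1723.

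The 7 constitutive beta genes had a median of -0.11 and a range of -0.14 to -0.05 in the authors' deposited table. Of these, 3 encode the subunits that cut proteins. In the authors' deposited table psmb5, the chymotrypsin-like subunit, stood at -0.10 (SE 0.0814; DESeq2 adjusted p = 0.630). The trypsin-like subunit gene psmb7 stood at -0.13 (SE 0.0662; DESeq2 adjusted p = 0.384) as listed in the authors' deposited table, and the caspase-like subunit gene psmb6 at -0.11 (SE 0.0743; DESeq2 adjusted p = 0.582). The non-catalytic psmb4 was the most negative, at -0.14 (SE 0.0623; DESeq2 adjusted p = 0.280), followed by psmb3 at -0.14, psmb1 at -0.11 and psmb2 at -0.05 in the authors' deposited table. The 3 catalytic genes therefore lay inside the range of the other 4.

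Of the immune and thymic beta genes, psmb10 alone passed the minimum, with a base mean of 162 and a log2 fold change of -0.06 (SE 0.113; DESeq2 adjusted p = 0.868) as listed in the authors' deposited table. The other 6 had base means from 0.294 (psmb11b) to 8.26 (psmb9a) in the authors' deposited table and no adjusted p, and their unadjusted p-values ran from 0.188 to 0.951. Of these 6, psmb8a, psmb13a, psmb12 and psmb9a lie together on chromosome 19 between 7105838 and 7144585. The spans of psmb8a and psmb13a overlap on the minus strand, so the division of reads between these 2 is uncertain. Both spans also hold psmb12 and psmb9a on the plus strand, whose reads are uncertain too unless reads were counted by strand. The base means give the level over all fitted libraries together, and the fold changes at this depth are not read as differences.

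The cap genes, like those of the core, were mostly negative and did not pass the test one by one. Of the 20 cap members 18 were negative, with a median of -0.08 and a range of -0.12 to 0.02 in the authors' deposited table. None was called by the DESeq2 test, against 2.68% of tested genes. For 1, psmd4a, the unadjusted p was under 0.05 in the authors' deposited table, against 13.0% of tested genes. After the shift to equal sums 15 of 20 were negative and the median was -0.03, against 34.7% and 0.05 for all tested genes.

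The 7 genes of the base ATPases, the motor that unfolds the substrate, ran from -0.12 to -0.03 in the authors' deposited table. At the ends were psmc4 at -0.12 (SE 0.0655; DESeq2 adjusted p = 0.430) and psmc6 at -0.03 (SE 0.0745; DESeq2 adjusted p = 0.887) as listed in the authors' deposited table. The others were psmc3, psmc2 and psmc5 at -0.09 each, psmc1a at -0.08 and psmc1b at -0.07 in the authors' deposited table. The smallest SE among the 50 members was that of psmc2, whose DESeq2 adjusted p was 0.455 in the authors' deposited table.

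Among the scaffold and ubiquitin receptor genes of the base, the receptor gene psmd4a stood at -0.12 (SE 0.0594; DESeq2 adjusted p = 0.327) and its paralog psmd4b at -0.04 in the authors' deposited table. The scaffold genes psmd1 and psmd2 stood at -0.06 and 0.02 in the authors' deposited table, with psmd2 on an unplaced scaffold and an SE of 0.110. Their 4 values had a median of -0.05 as deposited, and that median moved to 8.67e-05, which is positive, after the shift to equal sums. The median of all tested genes was 0.05 after the same shift.

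The 9 lid genes had a median of -0.08 and a range of -0.12 to 0.01 in the authors' deposited table. The deubiquitinase gene psmd14, which encodes the subunit that removes the ubiquitin chain, was the most negative at -0.12 (SE 0.0699; DESeq2 adjusted p = 0.451) as listed in the authors' deposited table. The others were psmd7 and psmd3 at -0.10, psmd13 and psmd11a at -0.08, psmd6 at -0.07, psmd12 and psmd8 at -0.05 and psmd11b at 0.01 in the authors' deposited table. The values of the lid thus overlapped those of the base and of the core.

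The core and cap genes lay closer together than their errors. Their 37 log2 fold changes had a standard deviation across genes of 0.0392, against a median SE of 0.0745 from the authors' deposited table. All were measured in the same libraries, so the 37 genes are not independent replicates, and the correlation between their errors is unknown here. Given the smallest Wald statistic that was called, a gene with the members' median SE would have needed a log2 fold change of 0.25 in size. A shift of about 0.09 could therefore not have been called gene by gene at this precision.

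**Figure D4:**
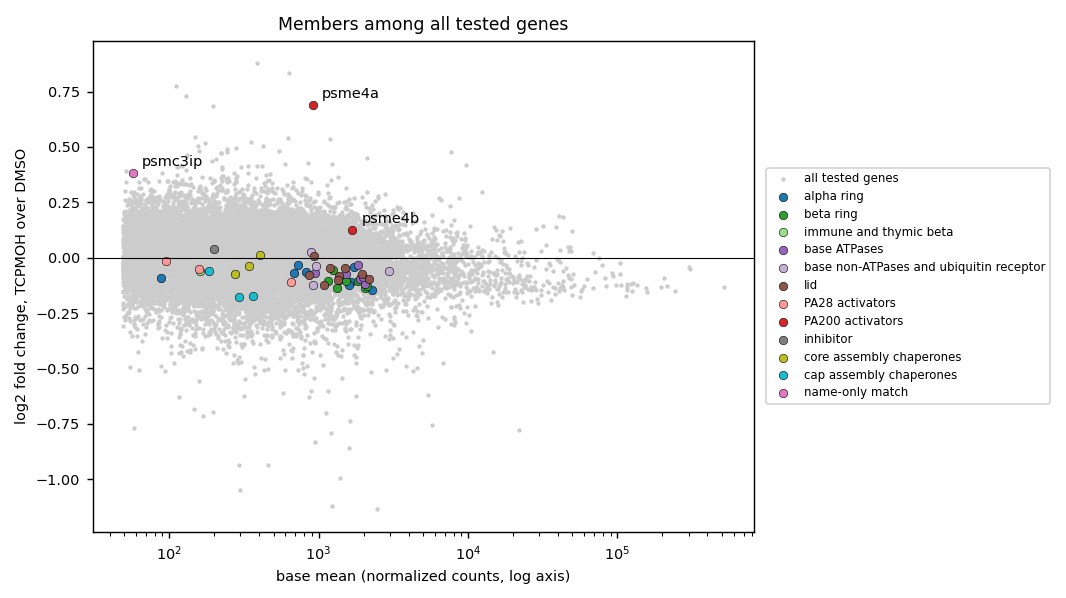
Log2 fold change (y axis; TCPMOH over DMSO as read here) against base mean (x axis, normalized counts, log axis) for the 19257 tested genes in grey and the 50 members coloured by role. Core and cap genes form a tight group just below 0, while psme4a (0.69) lies far above every other member.

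Among the 3988 tested genes in the base mean range of the cap genes, from 869 to 2942, 52.1% were negative and the median was -0.01, and none of the 3988 had a higher log2 fold change than psme4a. By the DESeq2 test 33 of the 3988 were called higher and 115 lower, and 598 had an unadjusted p under 0.05. This range was chosen after the values were seen.

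The PA28 activator genes did not pass the test. In the authors' deposited table psme1 and psme2, which form the interferon-induced ring in mammals, stood at -0.05 (SE 0.0993; DESeq2 adjusted p = 0.868) and -0.02 (SE 0.111; DESeq2 adjusted p = 0.970). The nuclear activator gene psme3 stood at -0.11 (SE 0.101; DESeq2 adjusted p = 0.697) as listed in the authors' deposited table. The inhibitor gene psmf1 stood at 0.04 (SE 0.0939; DESeq2 adjusted p = 0.905) as listed in the authors' deposited table. Among the 5 activator genes, psme4a alone was called, as higher, against 0.758% of tested genes called higher.

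Assembly factors had a median of -0.07, with 5 of 6 negative in the authors' deposited table. None was called by the DESeq2 test, against 2.68% of tested genes, and 2 had an unadjusted p under 0.05, against 13.0%. These 2 were the cap chaperone genes psmd9, at -0.18 (SE 0.0874; DESeq2 adjusted p = 0.359), and psmd5, at -0.17 (SE 0.0836; DESeq2 adjusted p = 0.330), the most negative of all 50 members in the authors' deposited table. The third cap chaperone gene, psmd10, stood at -0.06 in the authors' deposited table. The chaperone genes of the core, psmg1, psmg2 and psmg3, stood at 0.01, -0.04 and -0.07 in the authors' deposited table. Their median of -0.04 became 0.01 after the shift to equal sums, where the median of all tested genes was 0.05. No direction is therefore given for these core chaperone genes.

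The gene that matches by name only, psmc3ip, was called higher, at 0.38 (1.30-fold; SE 0.117, base mean 57.5; DESeq2 adjusted p = 0.0411) as listed in the authors' deposited table. It lost the call when p-values were adjusted over every gene with one (DESeq2 statistics, adjusted p = 0.0677) and when the Wald statistics were divided by their own spread (adjusted p = 0.463). Its deposited span on chromosome 3, from 37112693 to 37135569, overlaps the end of mlx on the other strand by 54 bases. Its span also lies inside the very long deposited spans of znf1124 and znf1004 on its own strand. The gene mlx stood at 0.06 (SE 0.0707; DESeq2 adjusted p = 0.775) as listed in the authors' deposited table. Of the other genes within 60 kb, PLEKHH3, which ends 57641 bases upstream on the same strand, was called lower, at -0.43 (SE 0.0660; DESeq2 adjusted p = 5.46e-08) as listed in the authors' deposited table. Not called were retreg3 at 0.15, tubg1 at 0.0042 and znf1124 at -0.05, and znf1004, at -0.07, had no adjusted p in the authors' deposited table.

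Proteasome genes with other symbols, and partners of the particle, were taken from a list of 14 names, of which 12 were tested. None was called by the DESeq2 test, against 2.68% of tested genes. Of the 12, 9 were negative, against 50.6% of tested genes, and the median was -0.08 in the authors' deposited table. An unadjusted p under 0.05 was found for 2 of the 12, against 13.0% of tested genes. Cap genes without a psm symbol lay where the cap lay, with the ubiquitin receptor gene adrm1 at -0.10 (SE 0.0631; DESeq2 adjusted p = 0.510) and the lid gene sem1 at -0.12 (SE 0.0718; DESeq2 adjusted p = 0.502) as listed in the authors' deposited table. The maturation factor gene pomp stood at -0.04, and the cap deubiquitinase genes uchl5 and usp14 at -0.10 and -0.01, in the authors' deposited table.

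Of 11 tested regulators, 1 was called by the DESeq2 test, as lower, against 1.92% of tested genes called lower. An unadjusted p under 0.05 was found for 3 of the 11, nfe2l1a, nfe2l2b and mafga, against 13.0% of tested genes. The gene mafga, named after its value was seen, stood at 0.25 (SE 0.123, base mean 57.2; DESeq2 adjusted p = 0.351). Transcription of proteasome genes in mammals is raised by NFE2L1, a membrane-bound factor that is cut free when proteasome activity is short. Zebrafish has the paralogs nfe2l1a and nfe2l1b. In the authors' deposited table nfe2l1a stood at 0.34 (SE 0.121; DESeq2 adjusted p = 0.114) and nfe2l1b at -0.10 (SE 0.0728; DESeq2 adjusted p = 0.585). Neither passed as deposited. Among the recomputed settings nfe2l1a passed only after the shift to equal sums (DESeq2 statistics, adjusted p = 0.0472). It did not pass with Wald statistics divided by their own spread (DESeq2 statistics, adjusted p = 0.703). Adjustment over every gene with a p-value (adjusted p = 0.184) and removal of the span trend (adjusted p = 0.125) gave no call for nfe2l1a either. Its SE was larger than that of 99.1% of tested genes with like base means. The called regulator was nfe2l2b, a paralog of the oxidative stress factor, at -0.39 (SE 0.103; DESeq2 adjusted p = 0.0102) as listed in the authors' deposited table. It did not pass at the threshold of 0.01, and it lost the call when the Wald statistics were divided by their own spread (DESeq2 statistics, adjusted p = 0.242). Its paralog nfe2l2a stood at -0.05 (SE 0.0753; DESeq2 adjusted p = 0.840) as listed in the authors' deposited table.

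Upstream of the particle, no ubiquitin, shuttle or VCP complex gene was called by the DESeq2 test, against 2.68% of tested genes. An unadjusted p under 0.05 was found for 13.0% of tested genes. Of 8 tested ubiquitin and E1 enzyme genes 6 were negative, with a median of -0.04 in the authors' deposited table and none called or under an unadjusted p of 0.05 by the DESeq2 test. The polyubiquitin genes ubb and ubc stood at -0.05 and 0.07 in the authors' deposited table. Of 12 tested shuttle factor and VCP complex genes 7 were negative, with a median of -0.01 and 1 at an unadjusted p under 0.05, and the unfoldase gene vcp stood at 0.03 (SE 0.0901; DESeq2 adjusted p = 0.926) as listed in the authors' deposited table. The antigen presentation genes split, with 3 of 7 tested members negative. Of these 7, 1 was called, as lower, against 1.92% of tested genes called lower. It was brd2a, at -0.18 (SE 0.0553; DESeq2 adjusted p = 0.0418) as listed in the authors' deposited table. That gene encodes a chromatin reader and was listed for its place next to the immune beta genes on chromosome 19. It did not pass after the shift to equal sums (DESeq2 statistics, adjusted p = 0.174).

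**Figure D5:**
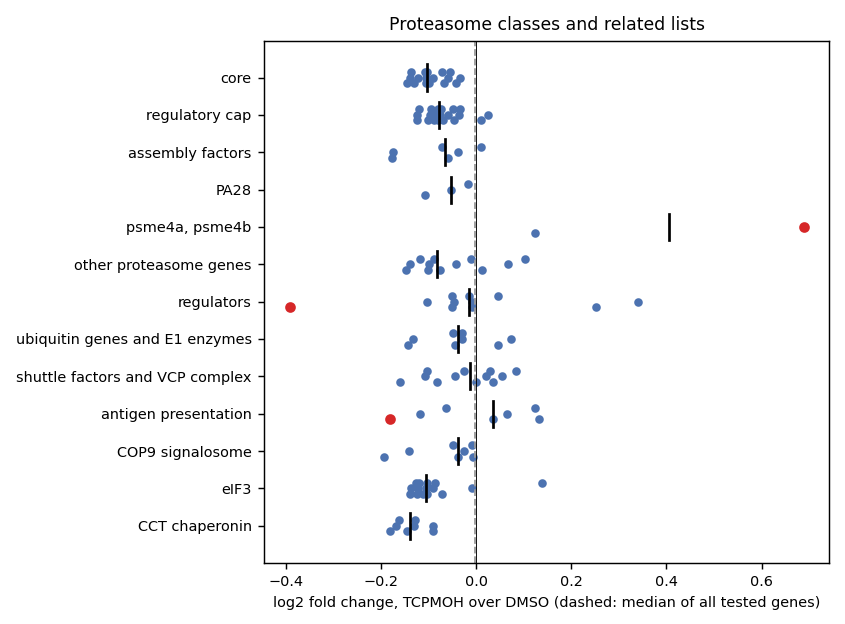
Log2 fold change (x axis; TCPMOH over DMSO as read here) of each tested gene by proteasome class and related list, with called genes in red, list medians as black bars and the median of all tested genes as a dashed line. Medians lie below 0 for every list but antigen presentation (0.04) and the pair of psme4a and psme4b (0.41). Among those below 0 are core (-0.10), cap (-0.08), eIF3 (-0.10) and CCT (-0.14), and psme4a lies alone at 0.69.

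Other complexes of many subunits, chosen after the members' values were seen, also had mostly small negative values. Their values ran from -0.19 (cops7a) to 0.14 (eif3bb), beyond the core and cap range of -0.15 to 0.02 on both sides. The eIF3 translation factor and the COP9 signalosome are built on the same domain plan as the lid, and the CCT chaperonin is a barrel that folds proteins. Genes of each complex were taken by symbol with a base mean of at least 20, so subunits under other symbols are not covered. All 8 CCT genes found so were negative, with a median of -0.14 in the authors' deposited table. Negative too were 14 of 15 eIF3 genes (median -0.10) and all 7 COP9 genes (median -0.04) in the authors' deposited table. None of these 30 genes was called by the DESeq2 test in the authors' deposited table, against 2.68% of tested genes. An unadjusted p under 0.05 was found for 6 of 8 CCT, 0 of 15 eIF3 and 2 of 7 COP9 genes, against 13.0% of tested genes. Small negative values were thus found in these complexes too, and differences from core and cap were not tested.

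Markers of other tissues in the larva lay on both sides of 0. In the authors' deposited table all 5 enterocyte markers were negative (median -0.26, range -0.41 to -0.06). Of these 5, 1 was called, against 2.68% of tested genes. All 4 skeletal muscle markers (median -0.13) and all 4 liver markers (median -0.09) were negative too. All 4 exocrine pancreas markers (median 0.10) and all 4 proliferation markers (median 0.11) were positive in the authors' deposited table. Leukocyte markers (3 of 6 negative, median 0.01) ran from -0.02 to 0.24, and neuron markers (2 of 4 negative, median -0.01) from -0.14 to 0.07. An unadjusted p under 0.05 by the DESeq2 test was found for 4 of 5 enterocyte and 2 of 6 leukocyte markers. These leukocyte markers, mpeg1.1 and mpx, were positive. No marker of the other lists had such a p, against 13.0% of tested genes. None of these 31 markers had a base mean of 0. The part of tissue makeup in the values of the members was not tested.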

How the data were processed

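The submitters' processing notes name STAR, featureCounts, cutadapt, FastQC and, for the authors' test, DESeq2. No versions are given there, and gene models were version 4.3.2 with Ensembl 99 identifiers, per the file headers. Base means were deposited as a signal at or above 0, and fold changes were deposited as log2 values. The SE and the Wald statistic are each a score that the authors deposited. The deposited p-values are Wald p-values, raw and with Benjamini-Hochberg adjustment. Recomputing that adjustment over 19257 genes gave values within 5.17e-06 of the deposited ones. Depth per library is unknown, and 0 columns held values of a library.

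Members and lists were chosen with earlier results of these data known. Every member could be named, beside called genes of the related lists and fixed names such as nfe2l1a. All 50 members matched the gene name table by Ensembl identifier. Roles were assigned from symbols. Calls used an adjusted p under 0.05 over all tested genes, and lists were described by counts and medians without a test. Alternatives were thresholds of 0.01 and 0.10, adjustment over all p-values, a shift of 0.0477 log2 units to equal group sums (from base means and fold changes), Wald statistics divided by their robust spread of 1.30, a lowess trend on gene span removed (fraction 0.3), and other member definitions. Steps were tested on simulated data. Promoter motifs were not searched. Tools were scipy 1.17.1, statsmodels 0.14.6, matplotlib 3.10.9, numpy 2.4.6 and pandas 2.3.3 in Python 3.11.15.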

Additional observations from a re-analysis of the deposited data

How the results depend on the processing

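The number of members called higher, 2 as deposited, was 1 at an adjusted p under 0.01, 1 with Wald statistics divided by their own spread, 1 with adjustment over every gene with a p-value, 1 at a base mean of at least 200 and 1 without the name-only match. In each of these 5 settings the remaining gene was psme4a, and the count of members called lower was 0 in every setting run. The adjusted p of psme4a ranged from 5.88e-08 to 0.00113 over the recomputed alternatives (DESeq2 statistics), and that of psme4b from 0.0586 to 0.932. Undoing the inferred shrinkage, which was chosen after seeing the data, put psme4a at 0.98, psme4b at 0.13 and the difference between them at 0.85. The members' median of -0.07 lay between -0.08 and -0.03 in all settings run. After the shift to equal sums 36 of 50 members were negative, against 34.7% of all tested genes. With the span trend removed 43 of 50 were negative, against 53.8% of all tested genes. Over all 19257 tested genes 146 were called higher and 370 lower as deposited (0.758% and 1.92%). The shift changed these calls to 355 higher and 218 lower (1.84% and 1.13%). Dividing by the spread left 28 and 93 (0.145% and 0.483%), and removing the span trend gave 128 and 401 (0.665% and 2.08%). Adjustment over all 32336 genes with a p-value gave 121 and 312 (0.374% and 0.965%). Calls over all genes were not counted at other thresholds of adjusted p or other base mean minimums. The call of brd2a was also lost with Wald statistics divided by their own spread (adjusted p = 0.466) and with adjustment over every gene with a p-value (adjusted p = 0.0689), from the DESeq2 statistics. The causes of these changes were not tested. No paired analysis was possible because the table holds no values per library, and for the same reason no replicate was left out. The planned promoter motif counts were not run. Whether p-values would change without 1 library is therefore unknown.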
